A study of Mus musculus with 67 samples.

Results

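Blood monocytes of wild-type mice sorted as Ly6C- were compared with those sorted as Ly6Cint, across all genes. The 4 libraries were chosen by their labels (wt, blood, Ly6C- or Ly6Cint, 2 each) among 67 libraries of the series. They stand in a table of 16 libraries that also holds wt blood Ly6C+ monocytes, ko blood Ly6Cint and Ly6C+ monocytes, and marrow progenitors and Ly6C+ monocytes of 8 weeks. The wt and ko mice were 16 weeks old and of mixed background, and blood cells were enriched for CD115, the receptor for colony stimulating factor 1, before flow sorting. RNA was captured on oligo-dT beads and sequenced. Other libraries of the series allowed the same comparison in blood of C57BL/6 mice at 7 weeks (n = 3 each) and in C57BL/6 hosts of 8 weeks, taken 24 h after a cell transfer (n = 2 each). Host libraries are named for Gr1, an antigen that overlaps Ly6C.

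Mouse blood monocytes run from classical Ly6C+ cells, which enter inflamed tissue, to Ly6C- cells, which patrol the vessel wall and depend on the nuclear receptor Nr4a1 and the transcription factor C/EBPb. Ly6Cint cells carry intermediate amounts of the antigen and are taken as the stage between the others. Some of them carry MHC class II, the molecules that present peptides to T cells. The comparison asks which genes separate the end of this path from the stage before it.

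The 4 libraries held 1501917 to 5478761 reads on the listed genes, and across all 16 libraries the range was 942751 to 5478761. Levels are given in RPM, reads per 1000000 sequenced in the library, with replicate 1 before replicate 2. Ly6c2, which encodes part of the sorted antigen, had 17.8 and 91.4 RPM in Ly6C- cells, 93.7 and 185 RPM in Ly6Cint cells and 1620 and 2275 RPM in Ly6C+ cells. The groups followed the labels without overlap, but the log2 ratio of Ly6C- to Ly6Cint was -1.67 ± 0.50 (SE) with a limma adjusted p of 0.215. The monocyte genes Csf1r (2615 and 1939 against 2619 and 1636 RPM), Cd68 (802 and 805 against 638 and 663 RPM) and Lyz2 (5012 and 5620 against 4825 and 6122 RPM) were high in both groups. Cd14, another monocyte gene, had less in both, with 48.3 and 34.4 RPM in Ly6C- cells against 30.1 and 17.8 RPM in Ly6Cint cells.

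Ly6Cint replicate 1 stood apart. Across 11388 genes its Pearson's r with Ly6Cint replicate 2 was 0.952, under its r of 0.963 with Ly6C- replicate 1, and 1622 genes lay more than 1 log2 unit apart between the Ly6Cint replicates, against 709 between the Ly6C- replicates and 386 between the Ly6C+ replicates. The difference between the Ly6Cint replicates followed the GC content of the transcripts (r = 0.49 over 11260 genes), while that of the Ly6C- replicates did so less (r = 0.20). The difference of Ly6C- from Ly6Cint cells also followed GC content (r = -0.31). Its r was -0.49 against Ly6Cint replicate 1 and 0.065 against Ly6Cint replicate 2. Ccr2, the chemokine receptor of classical monocytes, had 109 and 111 RPM in Ly6C- cells but 75.2 and 430 RPM in Ly6Cint cells, so its groups overlapped. Counts and calls are therefore also given without this library.

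Markers of other blood cells were low. Ms4a1, Pax5, Cd3e, Ncr1, Lck, Ppbp, Clec4f and Vcam1, which define B, T, NK, platelet and tissue macrophage cells, were at 0 in all 4 libraries. The 11 B cell markers found in the files summed to 46.2 and 37.0 RPM in Ly6C- cells and to 20.8 and 19.3 RPM in Ly6Cint cells, and the 19 T and NK markers to 3.17 and 1.54 RPM and to 1.90 and 4.54 RPM. The 15 erythroid markers summed to 72.8 and 454 RPM against 94.7 and 218 RPM, so replicate 2 was the higher in both groups. Globin genes that are near copies, such as Hba-a1 and Hba-a2, had the same or nearly the same values. These sums can therefore count the same reads more than once. The neutrophil list summed to 361 and 293 RPM against 287 and 205 RPM, mostly from Csf3r, G0s2 and Trem1, which monocytes express as well, while its defining genes Ly6g, Camp, Ltf and Ngp were under 3 RPM in every library. The 15 tissue macrophage markers summed to 484 and 432 RPM against 304 and 298 RPM, mostly from Adgre1 (F4/80) and Hmox1, heme oxygenase, and were higher in both Ly6C- libraries. The platelet list summed to 47.5 and 34.9 RPM against 43.2 and 30.6 RPM, nearly all from the integrin Itgb3, and the dendritic, plasmacytoid and basophil list to 239 and 252 RPM against 232 and 190 RPM. None of these lists had a called gene, and their part in the results was not tested.

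Limma called 51 of 11388 genes at an adjusted p under 0.05 (0.448% of those tested), of which 10 were higher (0.0878%) and 41 lower (0.36%) in Ly6C- cells. At an unadjusted p under 0.05 there were 1058 genes. Absence of overlap between 2 libraries each is common: 2453 genes (21.5%) lay higher and 1459 (12.8%) lower in both Ly6C- libraries. The median log2 ratio of all genes was 0.09. The edgeR quasi-likelihood test on the recovered reads called 107, 17 higher and 90 lower, and shared 46 of the 51. Without Ly6Cint replicate 1 the count was 21, 1 higher and 20 lower, 18 of them among the 51. With no Ly6C- replicate 1 it was 8, with no Ly6C- replicate 2 it was 16, and when limma was given only these 4 libraries it was 0, with 859 at an unadjusted p under 0.05. Nothing in the labels ties replicates to different mice, and the spread behind these p-values can therefore be technical. The same fit called 489 genes (4.29%) between Ly6Cint and Ly6C+ cells, a comparison that shares the Ly6Cint libraries.

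**Figure D1:**
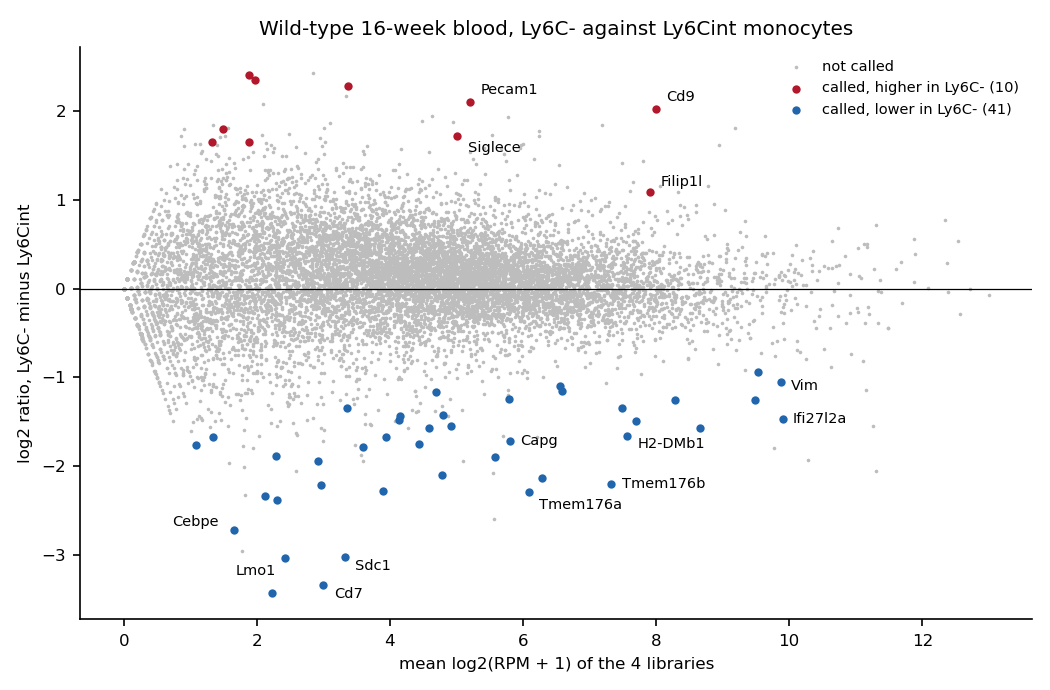
Each point is a gene tested in wild-type 16-week blood. The horizontal axis is its mean log2(RPM + 1) over the 4 libraries and the vertical axis the log2 ratio of Ly6C- to Ly6Cint. The 10 genes called higher (red) and 41 called lower (blue) in Ly6C- cells lie at the edges of the cloud at all levels.

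Among genes that rose in Ly6C- cells and averaged at least 20 RPM there, leaving out clone names, Pecam1, Cd9, Siglece and Filip1l passed the test. Cd9, a tetraspanin that organises adhesion receptors, had 465 and 570 RPM in Ly6C- cells and 113 and 140 RPM in Ly6Cint cells. The Ly6C- libraries lay far above the Ly6Cint libraries, and the log2 ratio was 2.03 ± 0.33 (adjusted p = 0.0128, limma). In Ly6C+ cells it stood at 11.0 and 11.3 RPM. Pecam1 (CD31), an adhesion molecule of endothelium and leukocytes, had 98.9 and 58.0 RPM against 21.95 and 12.9 RPM, a log2 ratio of 2.11 ± 0.40 (adjusted p = 0.0286). Siglece, an inhibitory receptor for sialic acids, had 65.3 and 50.8 RPM against 16.4 and 17.0 RPM, a log2 ratio of 1.73 ± 0.31 (adjusted p = 0.0187). For both genes the Ly6C- libraries lay above the Ly6Cint libraries, and these above the Ly6C+ libraries.

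Filip1l, which encodes a filamin-interacting protein, had 328 and 373 RPM in Ly6C- cells and 141 and 190 RPM in Ly6Cint cells (log2 ratio 1.09 ± 0.21, adjusted p = 0.0267), but 165 and 113 RPM in Ly6C+ cells. Its call was lost under a correction for GC content (log2 ratio 0.84, adjusted p = 0.0589). Without Ly6Cint replicate 1 all 4 of these genes kept their sign, at 1.87 for Cd9, 2.47 for Pecam1, 1.70 for Siglece and 0.88 for Filip1l, and their adjusted p were 0.0981, 0.0525, 0.113 and 0.193.

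The next in order of p did not pass the test. They were Ppcdc, an enzyme of coenzyme A synthesis (54.5 and 54.4 against 29.0 and 26.5 RPM, adjusted p = 0.065), Zfp36l1, an RNA-binding protein that promotes mRNA decay (96.4 and 118 against 18.4 and 39.3 RPM, adjusted p = 0.0664), Fam107b (213 and 201 against 116 and 140 RPM, adjusted p = 0.069) and the adaptor Gapt (31.0 and 32.4 against 11.9 and 16.6 RPM, adjusted p = 0.0736). In each the groups did not overlap. The other 6 genes called higher were clone-named or low. Parm1, a mucin-like membrane protein, averaged 7.58 ± 2.01 RPM in Ly6C- cells and 0.598 ± 0.224 RPM in Ly6Cint cells (SD, n = 2 each; log2 ratio 2.41, limma adjusted p = 0.0185), and was not called by edgeR (adjusted p = 0.12) or without Ly6Cint replicate 1 (adjusted p = 0.134). It and the next gene, the rises largest in ratio, were chosen after their values were seen. Adamdec1, a secreted metalloprotease of mononuclear phagocytes, had 8.00 and 7.70 RPM against 1.17 and 0.378 RPM and was 0 in both Ly6C+ libraries (log2 ratio 2.36 ± 0.36, adjusted p = 0.00745). Its call held without Ly6Cint replicate 1 (log2 ratio 2.68) but was lost without either Ly6C- replicate and without Ly6Cint replicate 2. Nor did edgeR call it (adjusted p = 0.13).

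More genes fell than rose. The largest falls among genes averaging at least 20 RPM in Ly6Cint cells, leaving out clone names, were those of Cd7 and Sdc1. Cd7 is an antigen of T and NK cells and Sdc1 the heparan sulfate proteoglycan syndecan-1. The Ly6C- libraries held only 19 and 1 reads of Cd7 and 23 and 3 reads of Sdc1. Both calls were lost with DESeq2 and without Ly6C- replicate 2. Cd7 had 3.17 and 0.514 RPM in Ly6C- cells and 39.4 and 15.1 RPM in Ly6Cint cells, a log2 ratio of -3.34 ± 0.50 (adjusted p = 0.00709). Sdc1 had 3.83 and 1.54 RPM against 27.2 and 28.0 RPM, a log2 ratio of -3.03 ± 0.43 (adjusted p = 0.00491). Both were low in Ly6C+ cells too, at 8.15 and 5.17 RPM for Cd7 and 1.54 and 3.65 RPM for Sdc1, so for these genes the Ly6Cint libraries were the highest of the 3 populations. Sdc1 is also known from plasma cells and Cd7 from lymphocytes. In the B cell list Cd79b had 35.5 and 30.3 RPM against 17.3 and 17.8 RPM, while Ms4a1 and Pax5 were at 0, and plasma cell markers were not listed, so the part of such cells was not tested.

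Tmem176a and Tmem176b, neighbouring genes for membrane proteins found in dendritic cells, gave the smallest adjusted p. Tmem176a had 30.8 and 28.8 RPM in Ly6C- cells and 143 and 157 RPM in Ly6Cint cells (log2 ratio -2.29 ± 0.18, adjusted p = 2.29e-05). Tmem176b had 71.3 and 76.5 RPM against 317 and 370 RPM (log2 ratio -2.20 ± 0.19, adjusted p = 6.21e-05). The replicates of each group lay close together, and both calls held without Ly6Cint replicate 1 (adjusted p = 0.000192 and 0.000302). Ly6C+ cells had 104 and 135 RPM of Tmem176a and 342 and 355 RPM of Tmem176b, near the Ly6Cint values. Capg, which caps actin filaments, also fell, with 29.2 and 30.3 RPM against 103 and 97.6 RPM (log2 ratio -1.72 ± 0.16, adjusted p = 9.95e-05), and stood at 378 and 363 RPM in Ly6C+ cells.

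Receptors and transcription factors were among the other falls. Axl, a receptor tyrosine kinase by which phagocytes clear apoptotic cells, had 5.33 and 6.16 RPM in Ly6C- cells and 29.4 and 34.0 RPM in Ly6Cint cells (log2 ratio -2.28 ± 0.44, adjusted p = 0.0286). Plxnd1, a semaphorin receptor, had 10.3 and 11.3 RPM against 43.3 and 34.4 RPM (log2 ratio -1.75 ± 0.27, adjusted p = 0.00745). Batf3, a factor needed for cross-presenting dendritic cells, had 11.3 and 13.4 RPM against 57.5 and 54.5 RPM (log2 ratio -2.10 ± 0.37, adjusted p = 0.0185). In all 3 the groups were far apart. Cebpe, a C/EBP family member of granulocyte maturation, was listed at 0 and 0.514 RPM (0 and 1 reads) in Ly6C- cells and at 7.46 and 6.81 RPM in Ly6Cint cells. The ratio of its pooled reads was 0.0173, with an exact 95% interval of 0.000431 to 0.0996 that covers counting error only (adjusted p = 0.00356, limma).

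Aif1 (Iba1), an actin-binding protein of macrophages, had 33.5 and 39.0 RPM in Ly6C- cells against 148 and 178 RPM in Ly6Cint cells (log2 ratio -2.13, adjusted p = 0.0185). Fam129b fell by 1.90 on the log2 scale, Cfb, complement factor B, by 1.79, and Myof, a ferlin of membrane repair, by 1.67 (adjusted p = 0.00192, 0.0424 and 0.0273). Cfb and Myof were lost as calls with a pseudocount of 0.5 RPM. S100a6, a calcium-binding protein, had 484 and 444 RPM against 1102 and 1109 RPM (log2 ratio -1.25 ± 0.21, adjusted p = 0.0152). Npc2, the lysosomal cholesterol carrier, had 525 and 542 RPM against 1092 and 964 RPM (log2 ratio -0.94 ± 0.17, adjusted p = 0.0216). Of the 24 genes named here that passed the test, 0 were called in fits of only the 4 compared or the 6 wild-type blood libraries. Only Tmem176a, Tmem176b, Fam129b and Capg kept their call whichever of the 4 compared libraries was left out. Cebpe and Ifi27l2a, given below, lost theirs without Ly6C- replicate 1. All 24 kept their sign in each of the alternatives run. Without Ly6Cint replicate 1 the calls of the 4 genes that rose and of Batf3 were lost. Those of Cd7 (log2 ratio -2.68), Axl (-2.38), Aif1 (-2.27) and Cfb (-1.56) were lost too. So were those of Plxnd1 (-1.58), Myof (-1.83), S100a6 (-1.26) and Npc2 (-0.85).

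**Figure D2:**
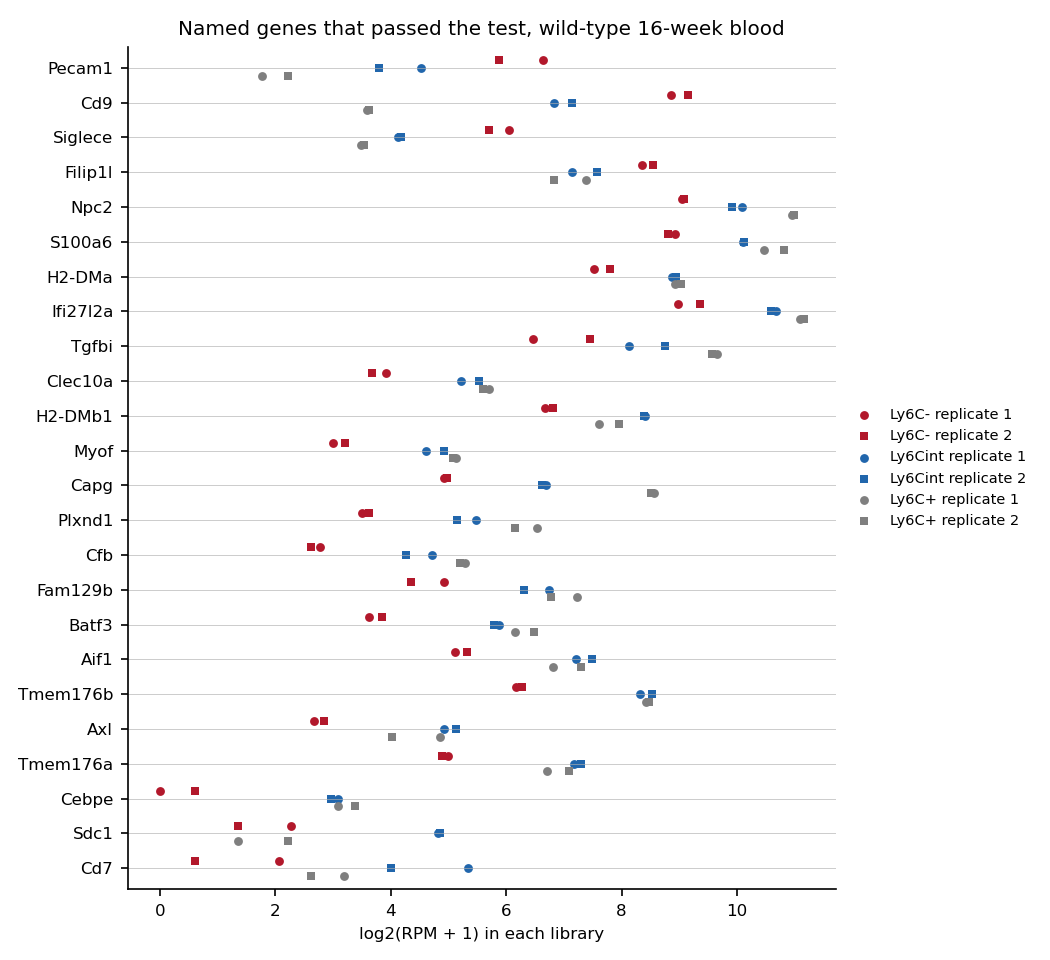
Each point is 1 library. The horizontal axis gives log2(RPM + 1) for the 24 named genes that passed the test, from the largest rise at the top to the largest fall at the bottom, in Ly6C-, Ly6Cint and Ly6C+ cells of wild-type 16-week blood. Ly6C- points are clear of Ly6Cint points in every gene, and Ly6C+ points lie on the far side of Ly6Cint for Cd9, Capg and Tgfbi but not for Sdc1 and Cd7.

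Of the 27 called genes outside the rule for named genes, a few were picked after their values were seen. Vim, the intermediate filament vimentin, had 651 and 650 RPM in Ly6C- cells against 1339 and 1358 RPM in Ly6Cint cells (log2 ratio -1.05 ± 0.18, adjusted p = 0.0187). Tmsb10, an actin-sequestering thymosin, had 105 and 118 RPM against 306 and 263 RPM (-1.35 ± 0.21, adjusted p = 0.00881), and Crip1, a LIM domain protein, 305 and 180 RPM against 830 and 590.5 RPM (-1.58 ± 0.30, adjusted p = 0.0273). These 3 were higher still in Ly6C+ cells, for example Vim at 4103 and 3290 RPM. Lgals1, galectin-1, fell by 1.09 on the log2 scale, and Eng, the TGF-beta co-receptor endoglin, fell by 1.95 (adjusted p = 0.0242 and 0.00584).

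Among these Lmo1, a LIM-only transcriptional regulator, had 1.33 and 0.514 RPM in Ly6C- cells against 15.7 and 13.2 RPM in Ly6Cint cells (log2 ratio -3.03 ± 0.31, adjusted p = 0.000191). Il17rc, a subunit of the interleukin 17 receptor, had 0 and 2 reads, listed as 0 and 1.03 RPM, against 17.6 and 11.7 RPM. The ratio of its pooled reads was 0.0158 (exact 95% interval 0.00190 to 0.0581, counting error only). Slfn1 and Slfn5, Schlafen genes that interferon can induce, fell by 1.25 and 1.54, and Rgs10, a regulator of G protein signalling, by 1.15 on the log2 scale (adjusted p = 0.0242, 0.0368 and 0.0187). Without Ly6Cint replicate 1 the calls of Lmo1 and Rgs10 held, and those of Vim, Tmsb10, Crip1, Lgals1, Eng, Il17rc, Slfn1 and Slfn5 did not. That of Rgs10 was lost without Ly6C- replicate 1, without Ly6C- replicate 2 and without Ly6Cint replicate 2.

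Promoters were searched for 4 motifs in the 16 named genes called for the size of their change, and at most 2 genes a motif are shown, those with the largest change, since C/EBPb, NR4A1, interferon and AP-1 (which binds with Batf3) are the regulators usually named for these cells. Sequences run from 250 bases before to 50 after the RefSeq start of the gene (GRCm38.p6), 5′ to 3′ on the gene's strand, with the motif in capitals. Sdc1 is at chr12:8771146-8771445 (plus strand) and Filip1l, 1 of 2 windows, at chr16:57353027-57353326 (plus strand), both shown for the C/EBP motif TTGCNNAA. Aif1 is at chr17:35176003-35176302 (minus strand) and Cd9 at chr6:125494711-125495010 (minus strand), both shown for the interferon element GAAANNGAA.
Sdc1: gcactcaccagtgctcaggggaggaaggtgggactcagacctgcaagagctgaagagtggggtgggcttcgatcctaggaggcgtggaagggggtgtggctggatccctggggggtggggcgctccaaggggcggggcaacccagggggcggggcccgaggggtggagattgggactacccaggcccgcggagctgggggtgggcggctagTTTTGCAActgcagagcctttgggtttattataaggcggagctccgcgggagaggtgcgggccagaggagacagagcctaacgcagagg
Filip1l: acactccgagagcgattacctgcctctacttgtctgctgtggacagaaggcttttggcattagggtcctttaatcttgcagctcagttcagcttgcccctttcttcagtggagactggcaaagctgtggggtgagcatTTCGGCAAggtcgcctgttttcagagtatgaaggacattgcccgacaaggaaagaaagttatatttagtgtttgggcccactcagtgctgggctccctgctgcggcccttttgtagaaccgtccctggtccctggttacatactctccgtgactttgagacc
Aif1: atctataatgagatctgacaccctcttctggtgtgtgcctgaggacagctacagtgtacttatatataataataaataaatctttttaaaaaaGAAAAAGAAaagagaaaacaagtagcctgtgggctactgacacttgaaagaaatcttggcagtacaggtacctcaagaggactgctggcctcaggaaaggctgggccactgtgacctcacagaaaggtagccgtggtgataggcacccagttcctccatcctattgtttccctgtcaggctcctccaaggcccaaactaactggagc
Cd9: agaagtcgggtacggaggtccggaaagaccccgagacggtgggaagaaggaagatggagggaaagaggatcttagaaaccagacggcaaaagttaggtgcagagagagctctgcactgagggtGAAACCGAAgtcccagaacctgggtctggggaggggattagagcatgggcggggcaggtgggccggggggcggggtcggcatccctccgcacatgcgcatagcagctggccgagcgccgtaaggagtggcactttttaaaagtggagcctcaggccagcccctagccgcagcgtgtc

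On both strands, the C/EBP motif was in 10.8% of 32851 promoters, the interferon element in 8.56%, the AP-1 motif TGANTCA in 7.81% and the NR4A motif AAAGGTCA in 1.51%. Of the 16 called genes with the largest changes, 12 had a promoter in the table, and besides the 4 shown only Plxnd1 and Myof held a match, both to the interferon element. Among all called genes with a promoter, the C/EBP motif was in 1 of 8 genes that rose and 2 of 30 that fell, against 10% of 8723 tested genes. The interferon element was in 1 of 8 and 6 of 30 (20%), against 8.94%, the AP-1 motif in 0 of 8 and 4 of 30, against 6.17%, and the NR4A motif in none, against 1.11%. No printed window held matches to more than 1 motif. A match is a run of letters and not a measured binding site.

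MHC class II and dendritic cell genes were the list with the lowest median. Of 22 tested, 4 fell, where 0.36% of all genes did, 0 rose, and the median log2 ratio was -1.35, against 0.09 for all genes. The 4 were H2-DMa, H2-DMb1, Batf3 and Clec10a. H2-DMa and H2-DMb1 form H2-DM, which loads peptides onto class II. H2-DMa had 183 and 221 RPM in Ly6C- cells and 470 and 491 RPM in Ly6Cint cells (log2 ratio -1.25 ± 0.17, adjusted p = 0.00356). H2-DMb1 had 101 and 111 RPM against 340 and 332 RPM (-1.66 ± 0.23, adjusted p = 0.00438). Clec10a, a galactose-binding lectin of dendritic cells and macrophages, had 14.2 and 11.8 RPM against 36.0 and 45.4 RPM (-1.57 ± 0.23, adjusted p = 0.00686). The calls of H2-DMa, H2-DMb1 and Clec10a held without Ly6Cint replicate 1 (log2 ratios -1.29, -1.64 and -1.73) but were lost without Ly6C- replicate 1. That of Clec10a was also lost without Ly6C- replicate 2. Batf3 lost its call when any of these libraries was left out (log2 ratio -2.06 without Ly6Cint replicate 1).

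The chains of class II themselves differed as much or more but did not pass the test. H2-Aa had 1093 and 1407 RPM in Ly6C- cells and 4866 and 5505 RPM in Ly6Cint cells (log2 ratio -2.06 ± 0.72, adjusted p = 0.334). H2-Ab1 had 540.3 and 743 RPM against 2190 and 2689 RPM (-1.94 ± 0.59, adjusted p = 0.234), and H2-Eb1 498 and 441 RPM against 1802 and 1465 RPM (-1.79 ± 0.77, adjusted p = 0.493). Cd74, the invariant chain, had 1513 and 1347 RPM against 4790 and 3640 RPM (-1.55 ± 0.62, adjusted p = 0.437). In all 4 genes the groups lay far apart within this comparison, and their SE, which comes from all 16 libraries, is larger than that of the H2-DM genes. In Ly6C+ cells H2-Aa was 888 and 1007 RPM and H2-Eb1 195 and 232 RPM, so the Ly6Cint libraries were the highest of the 3 populations, while H2-DMa was about as high in Ly6C+ cells (487 and 522 RPM).

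In all, 15 of the 22 genes were lower and 3 higher in both Ly6C- libraries, where 12.8% and 21.5% of all genes were. Ciita, the activator of class II transcription, had 19.0 and 25.2 RPM against 115 and 79.1 RPM (adjusted p = 0.154 with limma and 0.0102 with edgeR), and Flt3, the receptor of dendritic cell progenitors, 3.00 and 4.11 RPM against 19.0 and 7.94 RPM (adjusted p = 0.0995 with limma and 0.00956 with edgeR). Cd83, an activation antigen, went the other way with 150.4 and 124 RPM against 35.6 and 46.5 RPM (adjusted p = 0.137 with limma and 0.0167 with edgeR). These 3 were chosen after their values were seen. Of the markers that define dendritic cell types, Xcr1, Zbtb46 and Siglech stayed under 4 RPM in all 4 libraries, and Clec9a had 0.834 and 0.514 RPM against 2.49 and 4.54 RPM. Tcf4 and Runx2, factors of plasmacytoid dendritic cells that other cells express too, were higher in both Ly6C- libraries, with 49.0 and 49.8 RPM against 34.2 and 34.4 RPM for Tcf4 and 116 and 129 RPM against 49.3 and 67.3 RPM for Runx2. Neither was called, and the part of such cells in the results was not tested. With edgeR 7 genes of the list fell and 1 rose. The list median was -1.13 without Ly6Cint replicate 1. In bulk samples fewer cells of a type and less RNA per cell cannot be told apart.

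**Figure D3:**
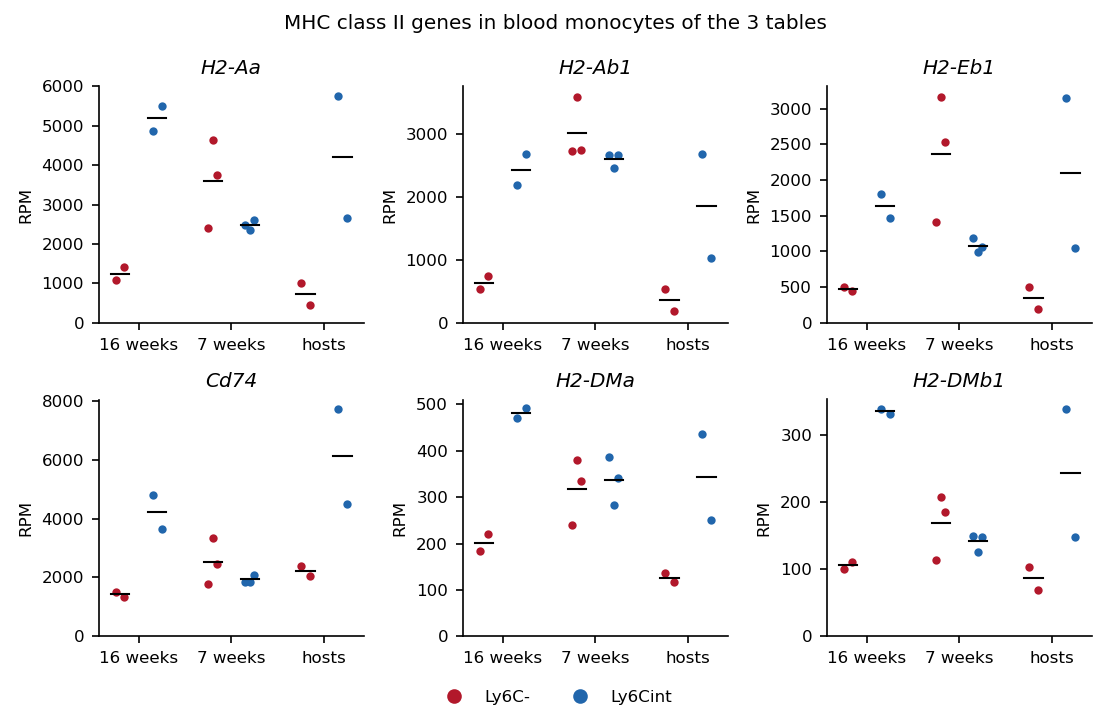
RPM of 6 MHC class II genes in each library (points) with the group mean (line), Ly6C- beside Ly6Cint cells, at 16 weeks (n = 2 each), at 7 weeks (n = 3 each) and in hosts (n = 2 each). The tables were normalised separately. Ly6C- points lie below Ly6Cint points at 16 weeks and in hosts for all 6 genes, while at 7 weeks the groups overlap except for H2-Ab1 and H2-Eb1, where Ly6C- points lie above.

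Patrolling monocyte genes had the highest median of all lists, 0.55, with 1 of 28 called higher (Cd9) and 0 lower. Of all genes 0.0878% were called higher and 0.36% lower. Of the 28, 16 lay higher in both Ly6C- libraries and 0 lower, where 21.5% and 12.8% of all genes did. Members of this and the other lists were chosen with earlier results of these data known, so such shares are not independent of the data. Cd300e, an activating receptor, had 1158 and 1031 RPM in Ly6C- cells against 313 and 309 RPM in Ly6Cint cells (log2 ratio 1.81 ± 0.42, adjusted p = 0.0965 with limma and 0.00255 with edgeR). Fcgr4, a receptor for IgG, had 915 and 820 RPM against 221 and 357 RPM (1.62 ± 0.39, adjusted p = 0.11 with limma and 0.0192 with edgeR). Itgax, the integrin CD11c, had 450 and 497 RPM against 231 and 268 RPM, and Pparg, the lipid-sensing nuclear receptor, 190 and 195 RPM against 122 and 89.6 RPM, neither called. For these genes the groups did not overlap. Cd36, a fatty acid scavenger receptor, had 233 and 328 RPM against 30.7 and 187 RPM (1.85 ± 0.73, adjusted p = 0.428), and its log2 ratio was 0.56 without Ly6Cint replicate 1.

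Other genes of this list overlapped between the groups. Nr4a1 had 2092 and 1692 RPM in Ly6C- cells and 1758 and 1380 RPM in Ly6Cint cells (log2 ratio 0.27 ± 0.26, adjusted p = 0.824), against 387 and 529 RPM in Ly6C+ cells. Ace, angiotensin converting enzyme, had 2425 and 2056 RPM against 2409 and 1703 RPM, and Itgal, the integrin LFA-1, 1196 and 1103 RPM against 1238 and 821 RPM. Cx3cr1, the fractalkine receptor by which patrolling cells are often identified, had 506 and 482 RPM against 387 and 573 RPM (log2 ratio 0.07, adjusted p = 0.984), a sign that turned under TMM scaling. Treml4, a receptor of the same cells, had 858 and 749.9 RPM against 455 and 618 RPM without overlap (0.60, adjusted p = 0.567), and Bcl2, a survival factor, 153 and 237 RPM against 167 and 186 RPM (0.12, adjusted p = 0.955, turning negative under GC correction). Between Ly6Cint and Ly6C+ cells, in the comparison with shared libraries, 24 of the 28 were called higher with a median of 2.14, where 239 of all genes (2.1%) were called higher and the median of all genes was -0.06.

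Classical monocyte genes had a median of -0.67, with 2 of 23 lower, 0 higher, and 8 lower in both Ly6C- libraries. Of all genes 0.36% were called lower and 12.8% lay lower in both Ly6C- libraries. S100a6 was given above. Tgfbi, a matrix protein induced by TGF-beta, had 87.2 and 174 RPM in Ly6C- cells, 278 and 433 RPM in Ly6Cint cells and 805 and 759 RPM in Ly6C+ cells (log2 ratio of Ly6C- to Ly6Cint -1.49 ± 0.28, adjusted p = 0.0256). Its call held without Ly6Cint replicate 1 (log2 ratio -1.81) but was lost without Ly6C- replicate 1 or without Ly6Cint replicate 2. For Ccr2 the log2 ratio was -0.71 ± 0.60 (limma adjusted p = 0.788) and -1.96 without Ly6Cint replicate 1. Ly6c1, a near copy of Ly6c2 with which it can share reads, had 1.00 and 8.73 RPM against 1.46 and 6.81 RPM (0.01, adjusted p = 1), and its groups overlapped. Between Ly6Cint and Ly6C+ cells 13 of the 23 were called lower with a median of -1.62, where 250 of all genes (2.2%) were called lower.

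The transcription factors usually named for these cells showed little. Cebpb, which encodes C/EBPb, had 1935.5 and 1549 RPM in Ly6C- cells and 1734 and 1242 RPM in Ly6Cint cells (log2 ratio 0.24 ± 0.38, adjusted p = 0.912), so the groups overlapped. Cebpa had 48.2 and 36.5 RPM against 75.7 and 53.7 RPM (-0.59 ± 0.23, adjusted p = 0.418) and Cebpd 105 and 92.4 RPM against 144 and 118 RPM (-0.39 ± 0.23, adjusted p = 0.647), both lower in each Ly6C- library but not called. Klf4, a factor required for monocyte development, had 922 and 1129 RPM against 798 and 1052 RPM, and Spi1, which encodes PU.1, 972 and 847 RPM against 1126 and 932 RPM, with overlap in both. Klf2, a factor of quiescence and trafficking, had 950.3 and 700.04 RPM against 879 and 637 RPM, and Irf8, a factor of monocyte and dendritic cell lineages, 297 and 316 RPM against 319 and 287 RPM, also with overlap. Of 36 monocyte transcription factors 1 fell, Cebpe, where 0.36% of all genes did, and the median was 0.06. None of the 26 genes to be given whatever their test was called.

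Fc and paired immune receptors had a median of 0.46, with 1 of 29 higher (Siglece) and 0 lower. The median was 0.18 without Ly6Cint replicate 1. Of them 13 lay higher and 3 lower in both Ly6C- libraries, where 21.5% and 12.8% of all genes did. For this list and the 2 below, 0.0878% of all genes were called higher and 0.36% lower. Trem2, a lipid-sensing receptor of macrophages chosen after its values were seen, stood at the other end of the list with 14.0 and 19.5 RPM in Ly6C- cells against 62.9 and 70.0 RPM in Ly6Cint cells (log2 ratio -1.94, adjusted p = 0.0582 with limma and 0.0059 with edgeR). Adhesion and chemotaxis genes had 2 of 31 higher (Pecam1 and Cd9), 0 lower and a median of 0.19. Complement and scavenger genes had 2 of 22 lower (Axl and Cfb), 0 higher and a median of -0.49.

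Interferon response genes had 1 of 35 lower, where 0.36% of all genes were called lower, 0 higher and a median of -0.37. Ifi27l2a, an interferon-induced mitochondrial protein, had 505 and 652 RPM in Ly6C- cells, 1636 and 1544 RPM in Ly6Cint cells and 2172 and 2284 RPM in Ly6C+ cells (log2 ratio of Ly6C- to Ly6Cint -1.47 ± 0.21, adjusted p = 0.00562). Of the 35 genes 15 lay lower and 3 higher in both Ly6C- libraries, where 12.8% and 21.5% of all genes did. Isg15, an interferon-induced ubiquitin-like modifier, had 34.7 and 36.0 RPM against 69.4 and 54.5 RPM, and Irf7, the factor that amplifies interferon responses, 285 and 295 RPM against 493 and 398 RPM, neither called and both chosen after their values were seen.

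Lists with no called gene were NF-kappaB inflammatory genes (28 tested, median 0.45), feedback inhibitors (22, 0.37), cell cycle genes (39, 0.29), survival and death regulators (22, 0.22), immediate early genes (20, 0.16), glycolysis (24, 0.08), lysosomal genes (25, 0.02), oxidative phosphorylation (35, -0.15) and ribosomal proteins (75, -0.34). Lipid and cholesterol genes had 1 of 27 lower, Npc2, where 0.36% of all genes were called lower, and a median of 0.08. The NF-kappaB median rested on 1 library and was -0.04 without Ly6C- replicate 1, in which Il1b was 629 RPM against 251 RPM in Ly6C- replicate 2 and 198 and 159 RPM in Ly6Cint cells. The medians of lipid, glycolysis and lysosomal genes turned negative under TMM scaling. Of the 75 ribosomal protein genes 29 lay lower and 0 higher in both Ly6C- libraries, where 12.8% and 21.5% of all genes did. Their median was -0.56 without Ly6Cint replicate 1.

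**Figure D4:**
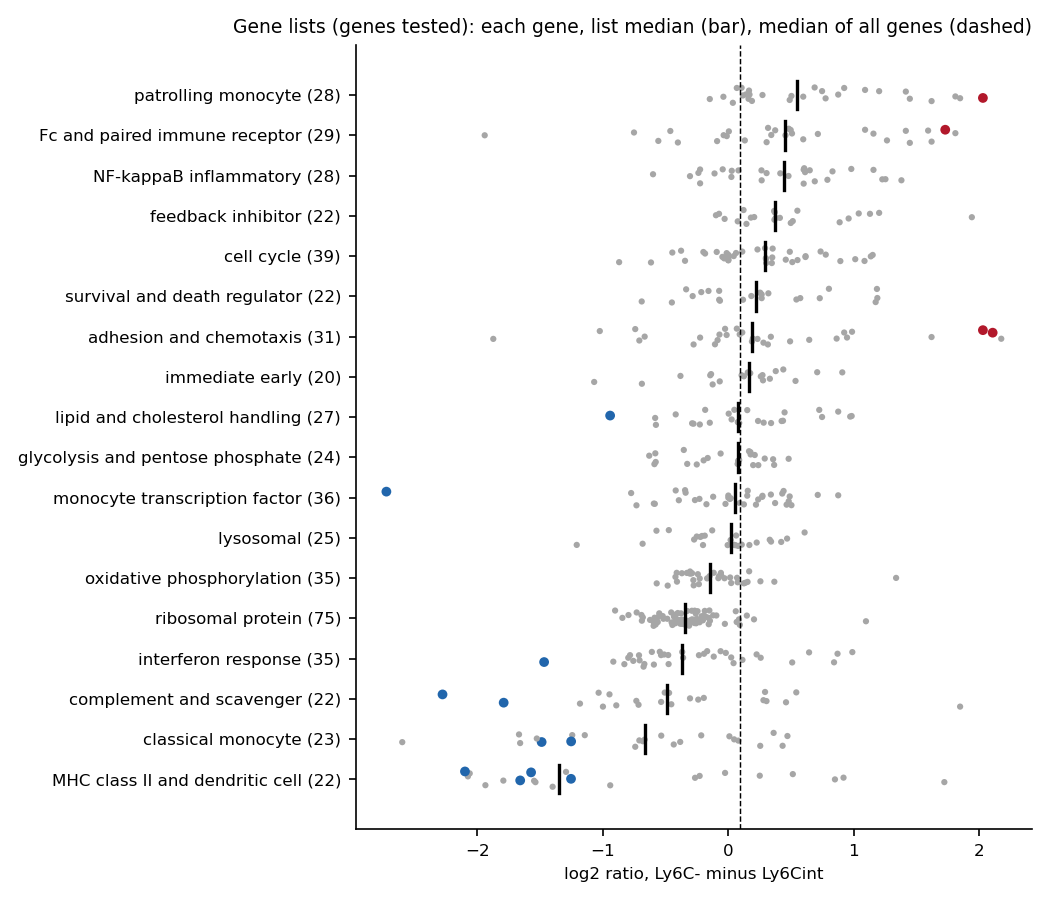
Each point is a gene placed by its log2 ratio of Ly6C- to Ly6Cint, in rows by gene list with the number tested, black bars for the list median and a dashed line for the median of all genes (0.09). Red and blue points were called higher and lower in Ly6C- cells. The lists run from patrolling monocyte genes (median 0.55) to MHC class II and dendritic cell genes (median -1.35).

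The called genes were then read in the other libraries of the series, each normalised and fitted in its own table, so that values stand side by side and differences between tables were not tested. At 7 weeks limma called 1009 of 11373 genes between Ly6C- and Ly6Cint cells (8.87%), 825 higher (7.25%) and 184 lower (1.62%). Of the 10 genes that rose at 16 weeks 8 were tested at 7 weeks, all 8 with a positive ratio, where 64.6% of all genes had one. Given only the 6 libraries compared, limma called 1 gene at 7 weeks, with 1869 at an unadjusted p under 0.05. Of the 8 genes 6 were called higher there too, 75% of the 8 and 0.744% of the 806 higher calls at 7 weeks. Of the 41 that fell 37 had a negative ratio, where 34.6% of all genes had one, and 19 were called lower, 46.3% of the 41 and 10.9% of 175. Across 11044 genes the log2 ratios of both tables had a Pearson's r of 0.25, over genes that are not independent replicates.

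Host values are per 1000000 over the listed genes only. In host blood limma called 13 of 12096 genes (0.107%), 1 higher and 12 lower, and 0 when given only those 4 libraries, with 1172 at an unadjusted p under 0.05. All 9 tested genes that rose and all 41 that fell at 16 weeks had the same sign in hosts. Of all genes 52.1% had a positive and 45.5% a negative ratio there. In hosts 7 of the 41 were called (17.1% of the 41 and 58.3% of 12 lower calls). Across 11030 genes Pearson's r was 0.38. Genes called lower in both included Tgfbi (-1.33), Aif1 (-2.03), Capg (-2.73) and S100a6 (-1.01).

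Cd9, Pecam1 and Siglece were called higher at 7 weeks too, with log2 ratios of 1.88, 2.23 and 2.44, and stood at 1.35, 1.87 and 1.47 in hosts, where none was called. Sdc1 had 3.47, 1.93 and 0.667 RPM in Ly6C- cells against 23.4, 11.1 and 18.8 RPM in Ly6Cint cells at 7 weeks (log2 ratio -2.69, adjusted p = 0.00785). Cd7 stood at 9.27, 3.21 and 3.34 RPM against 38.4, 37.4 and 57.1 RPM (-2.96, adjusted p = 0.000407). In both genes no Ly6C- library reached a Ly6Cint library. In hosts Sdc1 was 1.31 and 1.31 RPM against 19.7 and 25.4 RPM and Cd7 3.51 and 1.31 RPM against 25.8 and 32.9 RPM, not called.

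For other genes the 7-week ratio was near 0 while the host ratio was negative as at 16 weeks. Tmem176a had a log2 ratio of 0.19 at 7 weeks (117, 240.4 and 152 RPM against 165, 107 and 163 RPM) and -2.32 in hosts (50.8 and 14.5 RPM against 193 and 102 RPM). Tmem176b had -0.11 at 7 weeks and -2.31 in hosts, Batf3 -0.12 and -1.55, H2-DMa -0.09 and -1.39, and H2-DMb1 0.22 and -1.39. Clec10a was called higher at 7 weeks (0.94 ± 0.29, adjusted p = 0.0417), with 37.1, 93.2 and 58.7 RPM in Ly6C- cells against 27.5, 23.3 and 42.5 RPM in Ly6Cint cells. Filip1l was 0.22 and 0.35, neither called.

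Class II chains also had negative ratios in hosts. At 7 weeks their ratios were positive, and H2-Eb1 was called higher (1.06, limma adjusted p = 0.032). H2-Aa had a ratio of 0.48 at 7 weeks (2409, 4644 and 3748 RPM in Ly6C- cells against 2493, 2366 and 2604 RPM in Ly6Cint cells) and of -2.51 in hosts (1023 and 456 RPM against 5742 and 2649 RPM, adjusted p = 0.0109). At 7 weeks the MHC class II and dendritic cell list had 4 of 21 genes higher and 2 lower, with a median of 0.19. Of all genes there 7.25% were called higher and 1.62% lower, and their median was 0.20. In hosts the list had 0 higher and 1 of 22 lower, with a median of -1.39, where 0.107% of all genes were called. Age, strain and table differ between these sets and cannot be told apart. Hosts and 7-week mice share the strain C57BL/6, and hosts had received transferred cells.

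**Figure D5:**
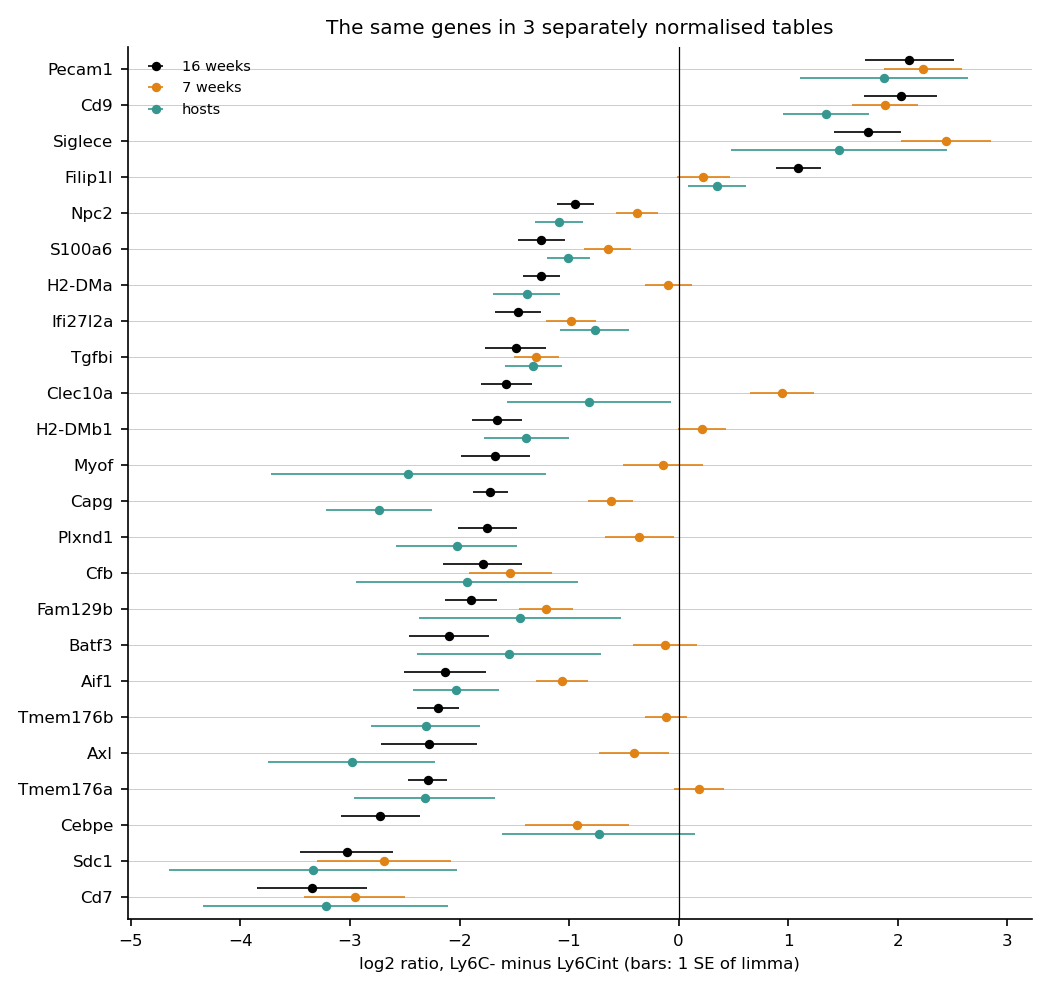
Log2 ratio of Ly6C- to Ly6Cint with 1 SE of limma for the 24 named genes at 16 weeks (black), at 7 weeks (orange) and in hosts (green), each from its own fit. Cd9, Pecam1, Siglece, Sdc1 and Cd7 lie on the same side in all 3, while Tmem176a, Tmem176b, H2-DMa, H2-DMb1 and Batf3 lie near 0 at 7 weeks.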

How the data were processed

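RNA of sorted mouse monocytes and progenitors was sequenced after oligo-dT capture. Per the submitters' processing notes, bcl2fastq, HISAT 0.1.5, SAMtools and HOMER were used with genome build mm9. The roles of these tools and the annotation are not given in the sources used here. The authors deposited 3 tables of values per gene, scaled by library. The 16-week and 7-week tables hold signal, which the authors scaled to a common total. Every 16-week value was a whole multiple of 1 read (tolerance 0.1 read), so reads could be recovered there. Signal was converted to RPM by assuming a deposited total of 10000000, which no source states. The host table was deposited as a score, rounded to whole numbers by the authors after scaling, and was converted to values per 1000000 over the listed genes, so that its RPM are not comparable in level with the others.

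Genes with at least 2 RPM in at least 2 libraries (3 at 7 weeks) were tested with limma 3.58.1 in R 4.3.3 on log2(RPM + 1) with a mean-variance trend. Each table was fitted with all its libraries, which then share 1 estimate of the spread, and Benjamini-Hochberg adjusted p under 0.05 was called. Ratios on this scale understate changes of low genes. Recovered reads were also tested with edgeR 4.0.16 and DESeq2 1.42.0. The GC correction was chosen after seeing the data. Tests were also run on simulated reads of independent libraries with none standing apart, which cannot check the calls made here. Genes were named by rule: the 12 called genes with the largest ratio in each direction without overlap and a mean of at least 20 RPM, filled to 8 by p, up to 4 called members of each list, and 26 fixed genes, of which 1 is not reported here. The members and lists were chosen with earlier results of these data known.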

Additional observations from a re-analysis of the deposited data

Results flagged for a closer look

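H2-Ab1 and H2-Eb1, chains of MHC class II, were lower in every Ly6C- library than in every Ly6Cint library at 16 weeks but higher in every Ly6C- library at 7 weeks. The 7-week log2 ratio was 0.207 for H2-Ab1 (2732, 3597 and 2753 RPM in Ly6C- cells against 2676, 2460 and 2671 RPM in Ly6Cint cells, adjusted p = 0.751, limma) and 1.06 for H2-Eb1 (1417, 3167 and 2526 RPM against 1195, 988 and 1063 RPM, adjusted p = 0.032, limma). At 16 weeks the ratios were -1.94 and -1.79. In hosts the log2 ratios were -2.36 for H2-Ab1 and -2.53 for H2-Eb1, neither called. Every host Ly6C- library lay below every host Ly6Cint library for these genes, as at 16 weeks. Hosts share the strain of the 7-week mice and had received transferred cells. The 16-week and 7-week sets differ in age and strain. Differences between the sets were not tested, since the tables were normalised separately.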

How the results depend on the processing

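The 51 calls (10 higher, 41 lower) rested on the spread shared by 16 libraries. The count was 92 with a pseudocount of 4 RPM (42 higher), 107 with edgeR (17 and 90), 280 with edgeR and no filter (68 and 212), 180 with DESeq2 (27 and 153) and 0 in fits of the 4 compared or 6 wild-type blood libraries (859 and 1133 genes at an unadjusted p under 0.05). With only the 10 blood libraries 25 were lower, with array weights 6 were higher, and with GC correction 63 were lower. Leaving out 1 replicate gave 8 to 42 calls, 0 to 13 higher and 8 to 29 lower. At 7 weeks a fit of the 6 compared libraries gave 1 call, 0 higher and 1 lower, and in hosts a fit of the 4 gave 0. Causes were not tested.

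With the replicate block the count was 42 (7 higher, 35 lower), 38 of them among the 51. Of the genes described, the block ended the calls of Filip1l (adjusted p = 0.0917), Cfb (0.077), Myof (0.0574), Npc2 (0.0783), Vim (0.0574) and Crip1 (0.0632, limma). The labels do not say that numbers pair samples, and the differences between replicates 1 and 2 correlated at 0.28 between Ly6C- and Ly6Cint cells, -0.04 between Ly6C- and Ly6C+ cells and 0.07 between Ly6Cint and Ly6C+ cells. All 24 named called genes kept their sign in every alternative.

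Signs turned in genes that were not called. Cx3cr1 was -0.0335 with TMM, -0.0575 with edgeR (-0.0566 with no filter), -0.0586 with DESeq2 and -0.0159 with GC correction, with or without the block. Irf8 was -0.0822 with TMM, -0.0934 with edgeR (-0.0946 with no filter) and -0.0906 with DESeq2. Bcl2 was -0.0701 with GC correction, with or without the block. Ly6c1 was -0.0257 with a pseudocount of 0.5 RPM, -0.00476 scaled to the listed genes, -0.0671 with TMM, -0.155 with quantile scaling, -0.0669 with edgeR (-0.0664 with no filter) and -0.0732 with GC correction, with or without the block. Leaving out 1 replicate gave ranges across 0 of -1.13 to 1.15 for Ly6c1, -1.96 to 0.54 for Ccr2, -0.22 to 0.35 for Cx3cr1, -0.00263 to 0.48 for Cebpb, -0.11 to 0.36 for Klf2, -0.0444 to 0.35 for Klf4, -0.0562 to 0.0935 for Irf8, -0.11 to 0.48 for Itgal, -0.11 to 0.39 for Ace and -0.20 to 0.43 for Bcl2. One read was worth 0.146 to 0.514 RPM in the 4 libraries, which limits genes under a few RPM.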
